A study of Mus musculus with 7 samples.

Results

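The cytosolic aminoacyl-tRNA synthetases and the genes of the ATF4 amino acid response were followed in hematopoietic stem cells (HSCs) after loss of Cebpa, which encodes the transcription factor C/EBPα. The set was chosen by name and holds 36 genes, namely 20 cytosolic synthetase genes, 7 genes of serine, one-carbon, asparagine and cysteine synthesis, 6 genes of ATF4, ATF5 and their stress targets, and 3 amino acid transporter genes. Of these, 34 were measured among the 19938 genes of the arrays. The choice was made with earlier results of these data known, so shares over the set describe it and are no test of it. Aars was present only on a probe set shared with another gene, and no probe set here was assigned to Dars alone, so neither has a value. The HSCs (lineage-negative, Sca1+, cKit+, CD150+, CD48-) came from the bone marrow of young adult female C57BL/6 mice. All mice were homozygous for a loxP-flanked Cebpa allele (flox/flox), all were injected with the interferon inducer pIpC, and all were analysed at day 18. Mice without a Cre transgene are called Cebpa fl/fl (3 arrays), and mice that also carried Mx1Cre are called Cebpa Δ/Δ (4 arrays). Mx1Cre is driven by an interferon-inducible promoter that is not restricted to HSCs, so Cebpa is also lost in other cells of these mice, and the controls lack Cre altogether. The series' design counts as many mice as arrays, although the labels also describe 3 replicates per genotype and 4 Cebpa Δ/Δ arrays are given. An array is named here by genotype and replicate number, as in Δ/Δ 3.

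Aminoacyl-tRNA synthetases load each amino acid onto its own tRNA and so feed protein synthesis. When a tRNA stays unloaded, when the endoplasmic reticulum is stressed or when heme is short, kinases phosphorylate the initiation factor eIF2. General translation then slows while the mRNA of Atf4 is translated more, and ATF4 switches on genes for amino acid synthesis, amino acid uptake and tRNA charging. ATF4 binds, as a dimer with C/EBP family proteins among others, to a composite site called the C/EBP-ATF response element. Because ATF4 is largely controlled by translation, its mRNA level need not follow its activity. HSCs keep protein synthesis low compared with more mature progenitors.

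Values are log2 RMA intensities, and a difference is Cebpa Δ/Δ minus Cebpa fl/fl on that scale with the standard error (SE) of limma's fit over all genes. Intensities of different probe sets are not comparable with each other, so a gene is compared only with itself. Cebpa, the deleted gene, measured 5.54, 5.75 and 5.63 in Cebpa fl/fl and 5.11, 5.24, 5.27 and 5.27 in Cebpa Δ/Δ HSCs (difference -0.41, SE 0.07), below the median gene level of 5.86 in both. The labelled cell type was checked with 13 measured HSC genes. Of these, 12 had a negative difference (median -0.29), and 0 passed an unadjusted p of 0.05 in limma, against 2 lower with array medians subtracted, with cyclic loess or without Δ/Δ 2. Their mean deviation from the 7-array mean was 0.10, 0.13 and 0.24 in Cebpa fl/fl and -0.30, 0.17, -0.59 and 0.25 in Δ/Δ 1 to 4, so Δ/Δ 1 and Δ/Δ 3 were low. The HSC transcription factor gene Hlf measured 10.68, 10.50 and 10.73 against 9.89, 10.62, 9.66 and 10.35, and Kit did not overlap between the genotypes (-0.34, limma p 0.0568). Genes of other cells differed between the genotypes: 13 of 13 erythroid genes were up in Cebpa Δ/Δ HSCs at an unadjusted p under 0.05, as were 5 of 12 macrophage genes, and 11 of 14 neutrophil genes were down. In sorted populations fewer cells of a type and less RNA per cell cannot be told apart.

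Few of the amino acid response genes passed an unadjusted threshold between the genotypes, and those that did were all higher in Cebpa Δ/Δ HSCs. At an unadjusted p under 0.05 in limma, 6 of 34 genes were higher (17.6%, against 4.4% of all genes), namely Asns, Vldlr, Vars, Slc7a5, Farsb and Iars, and 0 were lower (3.08% of all genes). At the study's thresholds, which also ask for a change over 1.5-fold, 2 genes were higher, Asns and Vldlr (1.57% of all genes), and 0 were lower (0.617%). No overlap between the arrays of the genotypes was seen in 4 genes that were higher, Asns, Vldlr, Vars and Iars (3.51% of all genes), and in 0 that were lower (2.46%). With Benjamini-Hochberg adjustment over all 19938 genes, limma called 0 members and 0 genes in all (smallest adjusted p 0.207), so each of these differences rests on an unadjusted p. The median difference of the 34 genes was 0.12 and 28 of them had a positive difference, against a median of 0.00 and 50.05% positive over all genes. With array medians subtracted or cyclic loess in place of the deposited scale, the 0.12 stayed within 0.10 to 0.14. The count of 6 depended on single arrays. It was 2 without fl/fl 3 (Asns and Vldlr), and 3 without fl/fl 1, Δ/Δ 1 or Δ/Δ 3 (Asns, Vldlr and Vars each time).

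**Figure D1:**
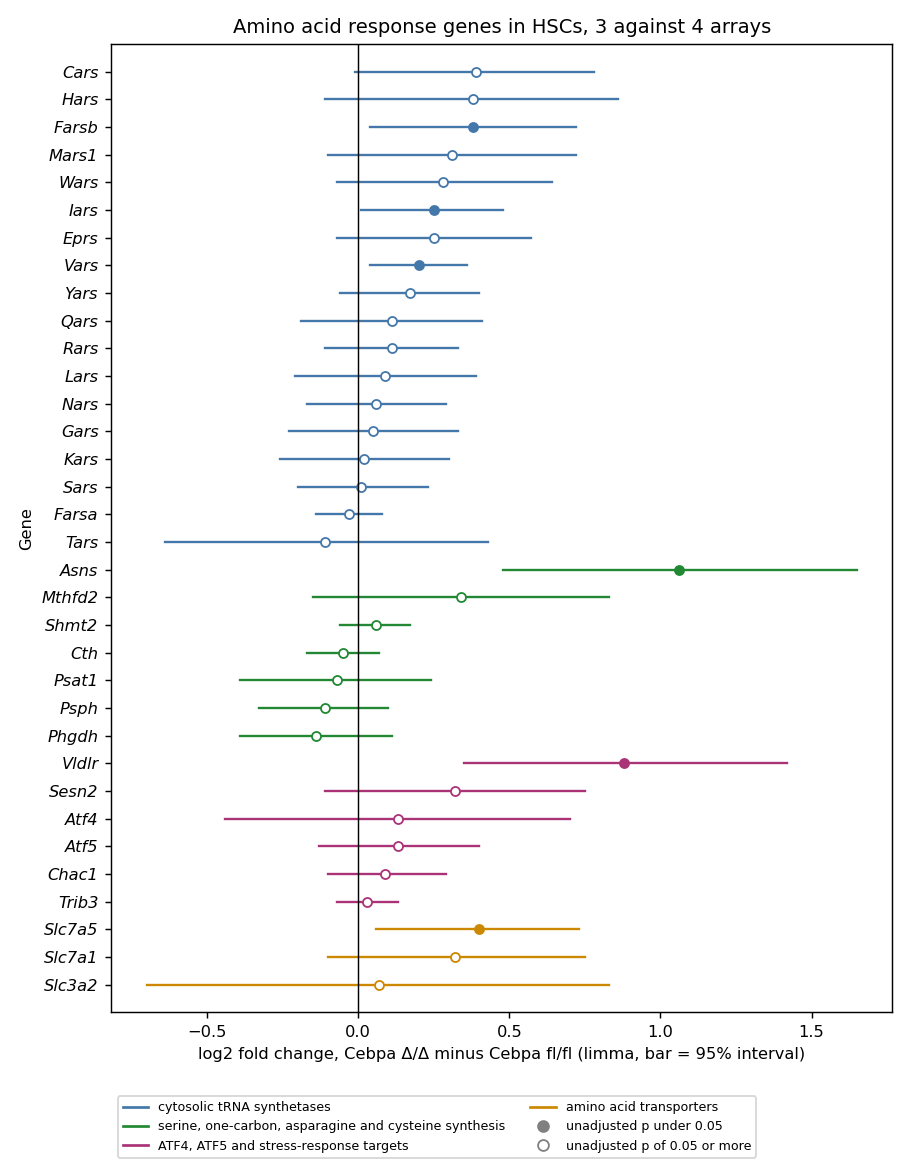
Log2 differences between Cebpa Δ/Δ (4 arrays) and Cebpa fl/fl (3 arrays) HSCs on the horizontal axis for the 34 measured genes, coloured by group and ordered by size within it; points are limma estimates, bars 95% intervals, and filled points have an unadjusted p under 0.05. Asns (1.06) and Vldlr (0.88) stand to the right of the others, and the 3 serine synthesis genes Psat1, Psph and Phgdh have intervals that span 0.

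Asns, which encodes the synthetase that makes asparagine from aspartate and glutamine, had the highest difference of the set. It measured 7.36, 7.91 and 7.21 in Cebpa fl/fl and 8.80, 8.08, 8.85 and 8.48 in Cebpa Δ/Δ HSCs. All Cebpa Δ/Δ arrays lay above all Cebpa fl/fl arrays, and Δ/Δ 2 and fl/fl 2 were the closest. The difference was 1.06 (SE 0.24, 95% interval 0.48 to 1.65), a fold change of 2.09, with a limma p of 0.0040 and an adjusted p of 0.481. The exact two-sided permutation p over the 35 splits of the 7 arrays was 0.0571, where 0.0286 is the smallest possible. Asns kept an unadjusted p under 0.05 in all 16 alternative analyses, with differences from 0.90 to 1.27.

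None of the other enzymes of the group passed an unadjusted p of 0.05 in limma. Phgdh, Psat1 and Psph encode the successive enzymes that make serine from a glycolytic intermediate. Phgdh measured 7.38, 7.20 and 7.26 in Cebpa fl/fl and 7.21, 7.34, 6.97 and 7.03 in Cebpa Δ/Δ HSCs (difference -0.14, 95% interval -0.39 to 0.11). The differences of Psat1 and Psph were -0.07 (-0.39 to 0.24) and -0.11 (-0.33 to 0.10). The groups overlapped in all 3 genes, and the intervals leave room for a rise of at most 0.24 on the log2 scale. The mitochondrial serine hydroxymethyltransferase gene Shmt2, which moves the serine carbon into the folate pool, was level at 8.92 to 8.97 in Cebpa fl/fl and 8.97 to 9.07 in Cebpa Δ/Δ HSCs (0.06, -0.06 to 0.17). Mthfd2, the next mitochondrial folate enzyme, was dim. It measured 5.86, 5.92 and 5.15 in Cebpa fl/fl and 5.93, 6.03, 6.16 and 5.81 in Cebpa Δ/Δ HSCs (0.34, 95% interval -0.15 to 0.83, limma p 0.140). The difference of Mthfd2 was 0.09 without fl/fl 3. Cth, the last enzyme of cysteine synthesis from methionine, lay between 4.54 and 4.67 on every array, below the median gene level (-0.05, -0.17 to 0.07).

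The promoters of the set were searched for the core of the C/EBP-ATF response element, TGATGNAA on either strand, from 250 bases before to 50 bases after the RefSeq start of each gene (GRCm38.p6). A window was found for 25 of the 34 measured genes, and 8 of them held the motif (32.0%), against 563 of 15563 tested genes with a window (3.62%). Several members were listed because they are known ATF4 targets, so this share describes the list and is no finding about the arrays. The sites are shown because the same letters stood near the start of genes that passed an unadjusted p of 0.05 and of genes that did not. In Iars and Trib3 the site lies just after the annotated start, and in the other 4 before it. The 3 genes with a site that passed an unadjusted p of 0.05 are given first, then 3 that did not. Iars passed on 1 of its 2 probe sets, and the other differed by 0.04. Each line is the strand of the gene, 5′ to 3′, with the motif or its reverse complement in capitals.
Asns, chr6:7693214-7693243, minus strand: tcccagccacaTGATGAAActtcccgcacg
Vldlr, chr19:27216809-27216838, plus strand: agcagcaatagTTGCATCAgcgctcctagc
Iars, chr13:49682126-49682155, plus strand: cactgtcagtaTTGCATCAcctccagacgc
Chac1, chr2:119351038-119351067, plus strand: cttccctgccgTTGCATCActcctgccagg
Trib3, chr2:152344028-152344057, minus strand: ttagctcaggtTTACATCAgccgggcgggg
Tars, chr15:11399655-11399684, minus strand: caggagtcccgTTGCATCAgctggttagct

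The same 8 letters as in Vldlr, TTGCATCA, thus stood in the windows of Iars, Chac1 and Tars, whose differences were 0.25, 0.09 and -0.11 against 0.88 for Vldlr. Gars and Yars also held the motif, and 0 of the 2 transporter windows did. A match is only a run of letters in this window, and no binding was measured here.

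Of the genes of ATF4, ATF5 and their stress targets, Vldlr alone passed an unadjusted p of 0.05. Vldlr encodes the very low density lipoprotein receptor, a lipid uptake receptor that stress through ATF4 can induce. It measured 7.18, 7.61 and 7.01 in Cebpa fl/fl and 7.76, 8.36, 8.49 and 7.99 in Cebpa Δ/Δ HSCs. The groups did not overlap, though Δ/Δ 1 was close to fl/fl 2. The difference was 0.88 (SE 0.22, 95% interval 0.35 to 1.42), a fold change of 1.84, with a limma p of 0.0063, an adjusted p of 0.507 and an exact permutation p of 0.0571. In the absence of both fl/fl 1 and Δ/Δ 3 it was 0.72 with a limma p of 0.0571.

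Atf4 itself varied more within the genotypes than between them. It measured 8.41, 8.67 and 9.35 in Cebpa fl/fl and 8.94, 8.73, 8.84 and 9.24 in Cebpa Δ/Δ HSCs, so that the lowest and the highest array were both Cebpa fl/fl. The difference was 0.13 (95% interval -0.44 to 0.70, limma p 0.602) and moved from -0.07 without fl/fl 1 to 0.40 without fl/fl 3. Asns and Vldlr were lowest on fl/fl 3, the array with the most Atf4 mRNA. Chac1, a glutathione-degrading enzyme gene and one of the most responsive ATF4 targets, was dim at 5.69, 5.58 and 5.63 in Cebpa fl/fl and 5.76, 5.58, 5.88 and 5.68 in Cebpa Δ/Δ HSCs (0.09, -0.10 to 0.29). Trib3, a pseudokinase gene that ATF4 induces, lay between 6.04 and 6.12 on all arrays (0.03, -0.07 to 0.13). Atf5, a relative of Atf4 with similar translational control, differed by 0.13 (-0.13 to 0.40), with Δ/Δ 3 (7.16) above the other arrays (6.72 to 6.85). Sesn2, whose product restrains mTORC1 when leucine is low, measured 5.49, 6.14 and 6.16 in Cebpa fl/fl and 6.33, 6.19, 6.09 and 6.38 in Cebpa Δ/Δ HSCs. Its difference of 0.32 (limma p 0.124) was 0.10 without fl/fl 1.

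**Figure D2:**
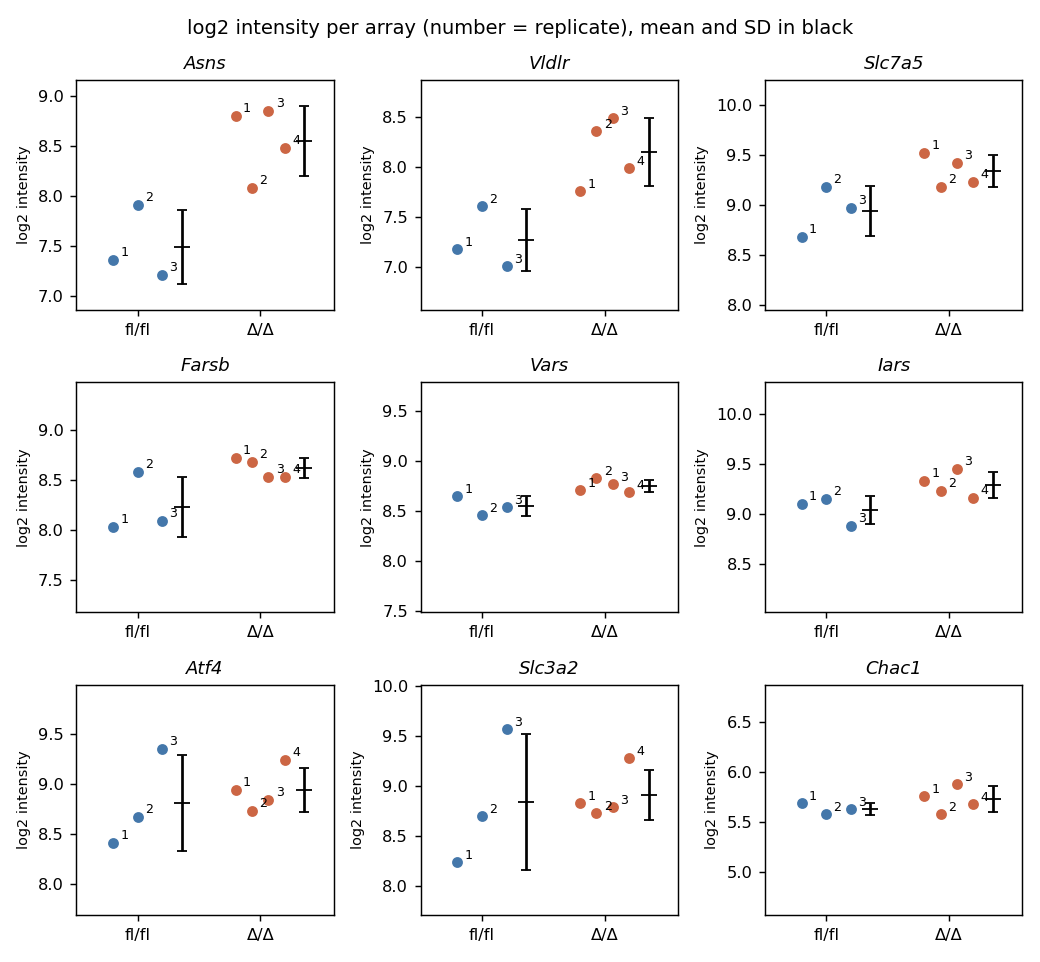
Log2 intensity (vertical axis, each panel spanning the same number of log2 units) of 9 genes on each array, numbered by replicate, with the mean and SD of the 3 Cebpa fl/fl and 4 Cebpa Δ/Δ arrays in black. The genotypes do not overlap for Asns, Vldlr, Vars and Iars, whereas Atf4 and Slc3a2 are highest on fl/fl 3 and lowest on fl/fl 1, and Chac1 lies between 5.58 and 5.88.

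The cytosolic synthetases had mostly small positive differences, few of which passed a test. Of 18 measured genes, 16 had a positive difference (88.89%, against 50.05% of all genes), the median was 0.14, and the range ran from -0.11 (Tars) to 0.39 (Cars). None passed the study's thresholds, and 3 were higher at an unadjusted p under 0.05 (16.7%, against 4.4% of all genes). Vars, the valine enzyme, measured 8.65, 8.46 and 8.54 in Cebpa fl/fl and 8.71, 8.83, 8.77 and 8.69 in Cebpa Δ/Δ HSCs. The groups did not overlap, at a difference of 0.20 (SE 0.07, limma p 0.0198, adjusted p 0.663, exact permutation p 0.0286, the smallest possible). Without fl/fl 2 or fl/fl 3 the limma p of Vars was 0.0615 and 0.050, and with array medians subtracted it was 0.0534.

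Farsb encodes the beta subunit of the phenylalanine enzyme and measured 8.03, 8.58 and 8.09 in Cebpa fl/fl and 8.72, 8.68, 8.53 and 8.53 in Cebpa Δ/Δ HSCs. Only fl/fl 2 reached into the Cebpa Δ/Δ range (difference 0.38, SE 0.14, limma p 0.0350). Leaving out fl/fl 1, fl/fl 3 or any of the Cebpa Δ/Δ arrays brought its p above 0.05 (0.0510 to 0.121). Farsa, the alpha subunit of the same enzyme, lay between 8.24 and 8.35 on all arrays (-0.03, -0.14 to 0.08). Whether the subunits differ from each other in their change was not tested.

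Iars, the isoleucine enzyme, measured 9.10, 9.15 and 8.88 in Cebpa fl/fl and 9.33, 9.23, 9.45 and 9.16 in Cebpa Δ/Δ HSCs. The groups did not overlap, with fl/fl 2 just under Δ/Δ 4 (difference 0.25, SE 0.10, limma p 0.0411). It was the only member with a second probe set, which differed by 0.04 between the genotypes, so the difference was not shared by both. Over the mean of both probe sets the difference was 0.14 (limma p 0.0910). Leaving out fl/fl 1, fl/fl 3, Δ/Δ 1, Δ/Δ 2 or Δ/Δ 3 also brought the p above 0.05 (0.0574 to 0.131).

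Cars (cysteine, 0.39, limma p 0.0538), Hars (histidine, 0.38, p 0.106), Mars1 (methionine, listed as Mars, 0.31, p 0.112), Wars (tryptophan, 0.28, p 0.102), Eprs (glutamate and proline, 0.25, p 0.110) and Yars (tyrosine, 0.17, p 0.121) had larger differences than Vars or close to it with a wider spread. Cars measured 6.64, 6.95 and 6.75 in Cebpa fl/fl and 7.21, 6.88, 7.54 and 7.04 in Cebpa Δ/Δ HSCs, and Hars measured 8.14, 8.30 and 7.79 against 8.64, 8.30, 8.78 and 8.09. In both genes Δ/Δ 1 and Δ/Δ 3 were high while Δ/Δ 2 or Δ/Δ 4 lay among the Cebpa fl/fl arrays. Single arrays also decided in the other direction. Cars passed an unadjusted p of 0.05 without Δ/Δ 2 (0.0233), Eprs without fl/fl 2 (0.0279), and Hars and Rars without Δ/Δ 4 (0.0402 and 0.0446).

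The remaining enzymes, Qars (glutamine, 0.11), Rars (arginine, 0.11), Lars (leucine, 0.09), Nars (asparagine, 0.06), Gars (glycine, 0.05), Kars (lysine, 0.02), Sars (serine, 0.01) and Tars (threonine, -0.11), had limma p values from 0.267 to 0.876. Tars had the widest spread, at 7.72, 7.22 and 6.89 in Cebpa fl/fl and 7.43, 7.24, 7.19 and 6.83 in Cebpa Δ/Δ HSCs (95% interval -0.64 to 0.43). Nars, which uses the asparagine that Asns makes, measured 9.27, 9.12 and 8.93 against 9.12, 9.12, 9.32 and 9.12. The difference of Nars had a 95% interval of -0.17 to 0.29. Of the 8 enzymes that sit together in the multi-synthetase complex, 7 were measured. They had a median difference of 0.11, with 7 of 7 positive (50.05% of all genes). At an unadjusted p under 0.05, 1 was higher (14.3%, against 4.4% of all genes). That was Iars, whose second probe set differed by 0.04.

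**Figure D3:**
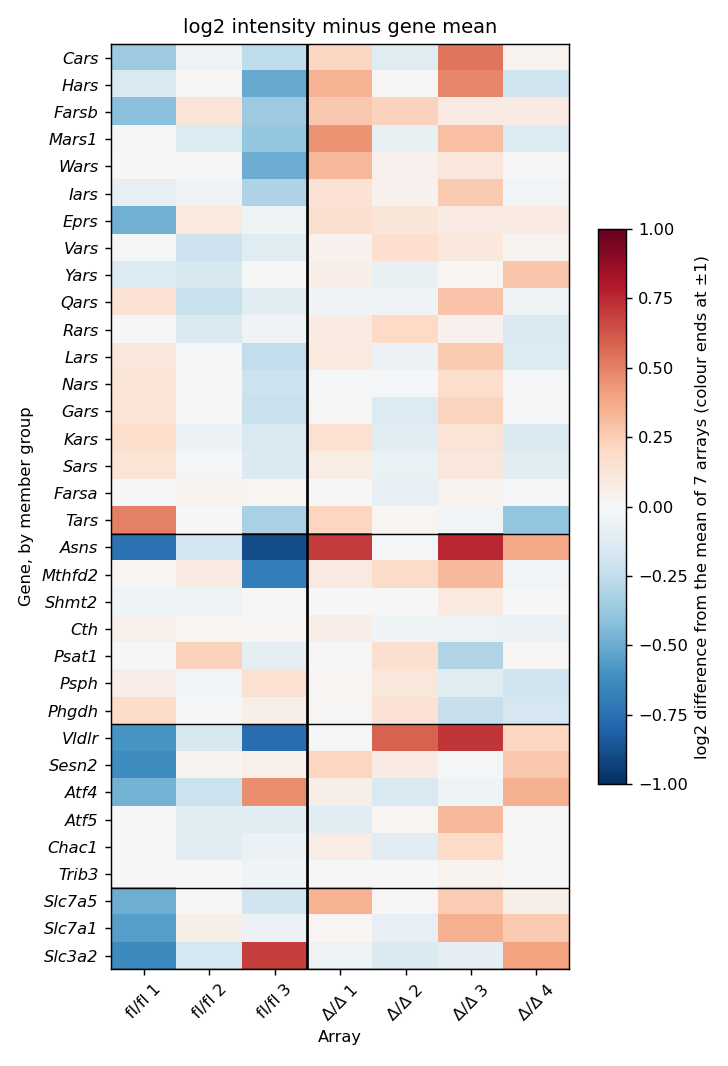
Log2 intensity minus the gene's mean over the 7 arrays (colour, scale ending at 1 either way) for the 34 genes in rows, grouped by role with black lines, and the 7 arrays in columns. Many synthetases are low on fl/fl 3 and high on Δ/Δ 1 and Δ/Δ 3, whereas Psat1, Phgdh and Psph are not raised on Δ/Δ 3.

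The synthetases varied by array as well as by genotype. Their mean deviation from the 7-array mean was -0.02, -0.04 and -0.22 on the Cebpa fl/fl arrays and 0.14, 0.00, 0.18 and -0.05 on Δ/Δ 1 to 4. Δ/Δ 4 therefore lay below fl/fl 1 and fl/fl 2, and fl/fl 3 stood lowest. Over all 34 genes, Δ/Δ 3 was the highest array for 16 and fl/fl 3 the lowest for 13. The serine synthesis genes Psat1 and Phgdh ran the other way on Δ/Δ 3, their lowest array at 7.75 and 6.97.

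Of the 3 transporter genes, Slc7a5 passed an unadjusted p of 0.05. Slc7a5 encodes LAT1, which exchanges leucine and other large neutral amino acids for glutamine, and it measured 8.68, 9.18 and 8.97 in Cebpa fl/fl and 9.52, 9.18, 9.42 and 9.23 in Cebpa Δ/Δ HSCs. The groups met at 9.18, the value of fl/fl 2 and Δ/Δ 2 (difference 0.40, SE 0.14, limma p 0.0275). Without fl/fl 1 it was 0.26 (p 0.0835), and without fl/fl 3, Δ/Δ 1 or Δ/Δ 3 its p was 0.0620 to 0.0665. Slc3a2, the heavy chain that LAT1 needs to reach the cell surface, measured 8.24, 8.70 and 9.57 in Cebpa fl/fl and 8.83, 8.73, 8.79 and 9.28 in Cebpa Δ/Δ HSCs (0.07, 95% interval -0.70 to 0.83). fl/fl 3 and Δ/Δ 4 were high and fl/fl 1 low, as for Atf4, and the sign of the Slc3a2 difference turned without fl/fl 1 (-0.23). Slc7a1, the carrier of arginine and lysine, measured 7.04, 7.65 and 7.53 against 7.61, 7.51, 7.95 and 7.85 (0.32, limma p 0.114), and without fl/fl 1 its difference was 0.14.

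Genes of the same pathway outside the set were counted from fixed lists. Upstream of ATF4, 15 genes of the eIF2 kinases, eIF2, its exchange factor eIF2B and its phosphatase were measured, of which 4 rose (26.7%, against 4.4% of all genes) and 1 fell (3.08% of all genes) at an unadjusted p under 0.05 (median 0.09). The count of 4 was 2 without any single array other than fl/fl 3 or Δ/Δ 4, 3 without fl/fl 3, and 1 without both fl/fl 1 and Δ/Δ 3. Eif2s2, the beta subunit of eIF2, measured 8.75, 9.51 and 8.99 in Cebpa fl/fl and 9.93, 9.72, 9.56 and 9.69 in Cebpa Δ/Δ HSCs, with no overlap (0.64, limma p 0.0123). Its p stayed under 0.05 whichever single array was left out. Averaged over its 2 probe sets the difference was 0.29 (limma p 0.0153). In a mean of 2 this leaves no rise for the other probe set, so the 0.64 rests on 1 of 2 probe sets. The heme-regulated kinase gene Eif2ak1 (HRI), known for its role in red cell precursors, measured 7.83, 7.57 and 7.61 against 8.41, 8.07, 8.0 and 7.82 (0.41, limma p 0.0308, and above 0.05 without fl/fl 2, fl/fl 3 or Δ/Δ 2). The interferon-induced kinase gene Eif2ak2 (PKR) differed by 0.46 (limma p 0.0370), and the difference was 0.26 without fl/fl 1. Its p was 0.0590 to 0.0889 without fl/fl 1, fl/fl 3, Δ/Δ 1, Δ/Δ 2 or Δ/Δ 3. Ppp1r15b, which targets a phosphatase to eIF2, differed by 0.24 (p 0.0331, and 0.0679 to 0.104 without fl/fl 1, fl/fl 2, Δ/Δ 1 or Δ/Δ 3). The kinase gene that senses unloaded tRNA, Eif2ak4 (GCN2), was the one that was lower, at 7.25, 7.02 and 7.08 against 7.0, 6.97, 6.71 and 6.86 (-0.23, limma p 0.0449). The groups did not overlap, but the p was above 0.05 without fl/fl 1 (-0.17, 0.141), fl/fl 3, Δ/Δ 3 (-0.17) or Δ/Δ 4. The kinase gene of the endoplasmic reticulum, Eif2ak3 (PERK), differed by -0.01 (p 0.890).

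Downstream, 19 further ATF4 target genes were measured, and limma called none at an unadjusted p under 0.05 (0 higher, 0 lower, median 0.09). Without fl/fl 1 or Δ/Δ 4 there were 2 higher, and without fl/fl 3 there was 1 lower. Gadd45a, a growth arrest gene, differed by 0.46 (p 0.0790), Cebpg, a dimer partner of ATF4, by 0.28 (p 0.103), and the mTORC1 inhibitor gene Ddit4 by 0.43 (p 0.111). Ddit3, which encodes the stress factor CHOP, measured 7.92, 7.51 and 7.92 against 7.97, 7.83, 7.90 and 7.82 (0.10, p 0.421), and Cebpb, another C/EBP gene, differed by 0.14 (p 0.339). Of 13 genes of the chaperones and other branches of the unfolded protein response 0 were called (median 0.08, and 2 higher without fl/fl 2), led by Pdia4 (0.25), Manf (0.21) and Sdf2l1 (0.29). Of 10 other folate and glycine genes 0 were called (median 0.11, and 2 higher without Δ/Δ 4), with Mthfd1 at 0.50 (p 0.100), Dld at 0.26 and Shmt1 at -0.25.

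The 16 measured mitochondrial synthetases, which charge tRNA for the mitochondrial ribosome, had a median difference of -0.01, with 7 of 16 positive and 0 called. The smallest p values were those of Sars2 (-0.14), Iars2 (0.15) and Cars2 (-0.13). Of the 3 scaffold proteins of the multi-synthetase complex, Aimp1 measured 8.11, 8.15 and 7.48 in Cebpa fl/fl and 8.58, 8.56, 8.41 and 8.13 in Cebpa Δ/Δ HSCs (0.51, limma p 0.0397). Δ/Δ 4 lay within the Cebpa fl/fl range, and without fl/fl 3 the difference was 0.29 (p 0.0953). Without Δ/Δ 1, Δ/Δ 2 or Δ/Δ 3 its p was 0.0759 to 0.0936. Aimp2 (0.13) and Eef1e1 (0.04) did not pass.

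Of 12 other amino acid transporters 1 was higher (8.33%, against 4.4% of all genes) and 1 lower (3.08% of all genes), with a median of -0.12. The glycine transporter gene Slc6a9, which supplies glycine for heme synthesis in red cell precursors, measured 5.66, 6.40 and 6.30 against 7.09, 6.58, 6.90 and 6.64 with no overlap (0.68, limma p 0.0175). Without fl/fl 1 the difference of Slc6a9 was 0.45 (limma p 0.0384). Slc7a6, a carrier of basic and neutral amino acids, was lower, at 8.36, 8.42 and 8.0 against 7.65, 7.66, 7.62 and 8.08 (-0.51, limma p 0.0147, and 0.0553 and 0.0569 without fl/fl 1 and fl/fl 2). Slc36a1 differed by -0.33 (p 0.0726). Of 15 genes of amino acid sensing upstream of mTORC1 0 were called (median -0.12), with Rragb at -0.42, Rptor at -0.19 and Nprl2 at -0.31. Of 20 nucleolar and ribosome biogenesis genes 0 were higher (4 without fl/fl 2) and 1, Mybbp1a, was lower (3.08% of all genes were lower). Mybbp1a differed by -0.16 (limma p 0.0316, and 0.0506 to 0.0886 without fl/fl 2, fl/fl 3, Δ/Δ 1 or Δ/Δ 3). Npm1 (0.22) and Nop58 (0.19) did not pass, and the median was 0.01.

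Other programs differed on the same arrays as Asns. Erythroid genes had a mean deviation from the 7-array mean of -1.71, -0.57 and -1.65 in Cebpa fl/fl and 1.53, 0.47, 1.37 and 0.57 in Δ/Δ 1 to 4, and their summed intensity ran from 1149 to 3138 and from 6188 to 11030. Slc4a1, the red cell anion exchanger, measured 5.87 to 6.94 and 8.80 to 9.91, and Alas2, the erythroid enzyme of heme synthesis, 5.34 to 5.74 and 6.89 to 8.31. Cell cycle genes had mean deviations of -0.44, -0.06 and -0.41 against 0.54, 0.15, 0.36 and -0.14, with summed intensities of 5394 to 6615 and 6133 to 9335. Of the 13 cell cycle genes, 6 were higher at an unadjusted p under 0.05 (46.2%, against 4.4% of all genes). This count was 1 to 7 with 1 array left out. Birc5, a mitosis gene, differed by 0.95, Bub1 by 0.81 and Mki67 by 0.58.

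Asns was highest on Δ/Δ 1 and Δ/Δ 3 and, within Cebpa fl/fl, on fl/fl 2, as the erythroid and cell cycle genes were. The HSC genes were lowest on Δ/Δ 1 and Δ/Δ 3, with summed intensities of 6708 to 7129 in Cebpa fl/fl and 4104 to 7027 in Cebpa Δ/Δ. Macrophage genes deviated by -0.52, -0.40 and -0.46 against 0.77, -0.01, 0.57 and 0.05, so they too were highest on those arrays. Vldlr shared the high fl/fl 2 and Δ/Δ 3 but was lowest of the Cebpa Δ/Δ arrays on Δ/Δ 1. Interferon genes deviated by -0.42, -0.27 and -0.12 against 0.21, 0.22, 0.25 and 0.13, with summed intensities of 2198 to 2782 and 3250 to 3723. At an unadjusted p under 0.05, 8 of 14 were higher (57.1%, against 4.4% of all genes), among them Xaf1 (0.58), Ifit1 (0.91) and Rsad2 (0.90). All mice had received pIpC, and no array without it was given. Macrophage genes summed to 1486 to 1867 and 2129 to 2886 (C1qc 2.02, C1qb 1.81, Lgmn 0.78) and neutrophil genes to 7827 to 20450 and 1521 to 2362 (Lcn2 -5.12, Ngp -5.14, Camp -3.98). Of 10 B and T cell genes 1, Cd3e, was higher (0.30), against 4.4% of all genes, with summed intensities of 429.9 to 524.4 and 429.9 to 498.9. The part of these programs in the differences of Asns, Vldlr and the synthetases was not tested.

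**Figure D4:**
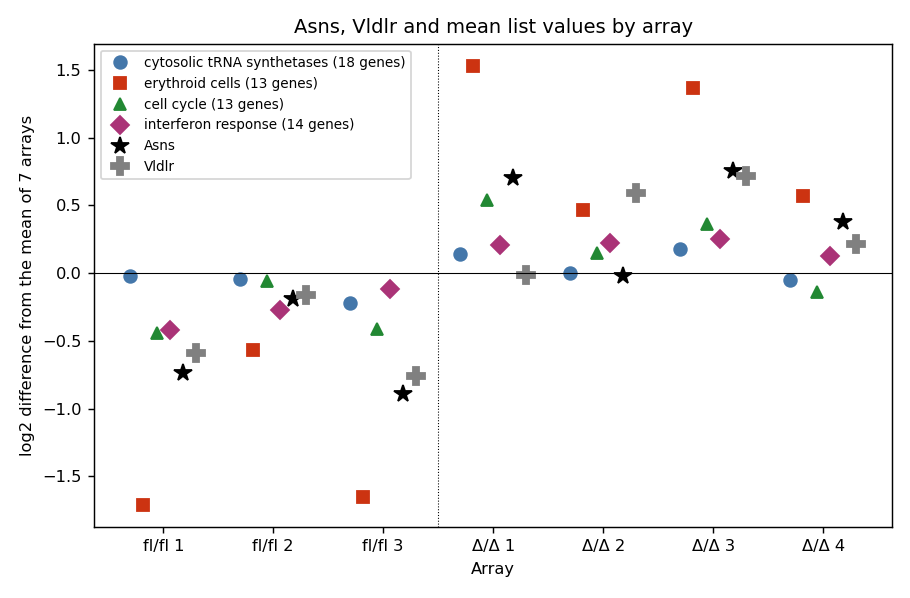
Difference from the mean of the 7 arrays (vertical axis, log2) on each array for Asns, Vldlr and the gene means of the cytosolic synthetases and of the erythroid, cell cycle and interferon lists. Asns and the erythroid genes are highest on Δ/Δ 1 and Δ/Δ 3, Vldlr on Δ/Δ 2 and Δ/Δ 3, and the synthetases stay between -0.22 and 0.18.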

How the data were processed

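RNA of sorted HSCs was amplified with a NuGEN kit, biotin-labelled and measured on Affymetrix Mouse Gene ST arrays. The authors deposited linear RMA intensity values; Partek Genomics Suite is the software named in the methods, while the submitters' processing notes list affy and RMA with no version. RMA corrects background, equalises the arrays' probe distributions and summarises probes, so a global change in RNA content is invisible. Array medians lay between 46.2 and 50.4, and the number of arrays limits the precision. log2 was taken with no pseudocount. Of 35556 probe sets, 21789 had 1 gene symbol, 1621 several and 12146 none, and the probe set with the highest mean was used for the 999 genes with several. In 63.6% of genes, and 11 of the 34 members, at least 2 arrays held exactly the same value. All per-sample columns were used.

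Genotype was fitted with limma 3.58.1 (lmFit and eBayes, R 4.3.3) over 19938 genes with Benjamini-Hochberg adjustment, and single genes were also compared by exact two-sided permutation over 35 splits. The fit was tested on simulated data. All 36 members and, of each list, the 3 genes with the smallest p were named, besides Cebpa, the eIF2 kinases, Ddit3, Cebpb and Cebpg. The members and lists were chosen with earlier results of these data known. Alternatives were other scaling, filters and array weights, no moderation, a replicate block, leaving out arrays, and averaging probe sets.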

Additional observations from a re-analysis of the deposited data

Results flagged for a closer look

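Within the 4 Cebpa Δ/Δ arrays, Δ/Δ 3 was set apart from the others in 4 of the 35 genes checked. Nars measured 9.32 on Δ/Δ 3 and 9.12 on the other arrays of the genotype, Qars 8.07 against 7.75, Shmt2 9.07 against 8.97 and Trib3 6.12 against 6.09. In all 4 genes the other 3 arrays held the same value to 2 decimals, so any gap fills nearly the whole range, and the rate of about 5% that chance gives in groups without such ties does not apply.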

How the results depend on the processing

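The medians of all 34 genes (0.09 to 0.14) and of the synthetases (0.12 to 0.16) kept their sign under all 16 alternatives, and 0 members passed an adjusted p of 0.05 in any. Asns kept an unadjusted p under 0.05 in 16 of 16 alternatives, Vldlr in 15, Vars in 11, Slc7a5 in 10, Farsb in 7 and Iars in 4. The cause of these losses was not tested; leaving out arrays also costs power. Leaving out 1 array gave 2 to 7 genes higher at an unadjusted p under 0.05, 2 at the study's thresholds, 4 to 10 that did not overlap and were higher (10 without fl/fl 2, where the share of all genes also rose, from 3.51% to 8.19%) and 0 to 1 that were lower. Without both fl/fl 1 and Δ/Δ 3 these counts were 3 (Asns, Vars and Qars), 1 (Asns), 6 (8.87% of all genes) and 1 (Farsa, 7.58%). With array medians subtracted 2 genes that were higher did not overlap (4.23% of all genes). The median of the ATF4 group was 0.09 to 0.26 over single arrays left out (0.26 without fl/fl 3), and that of the transporters 0.14 to 0.44, or 0.07 without both arrays.

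Signs turned only in genes that were not called. Without fl/fl 1 and Δ/Δ 3, Atf4 was at -0.04, Slc3a2 at -0.20 and Tars at 0.11, and with array weights Slc3a2 was at -0.05. Over single arrays left out Atf4 ran from -0.07 to 0.40, Slc3a2 from -0.23 to 0.43, Tars from -0.30 to 0.11, Gars from -0.05 to 0.13, Kars from -0.05 to 0.11, Lars from 0.00 to 0.18, Nars from -0.02 to 0.14, Psat1 from -0.14 to 0.02 and Sars from -0.05 to 0.08. Among the lists, the eIF2 genes had 1 to 4 higher and 0 to 1 lower calls, the other ATF4 targets 0 to 2 and 0 to 1, the mitochondrial synthetases 0 and 0 to 1, and the cell cycle genes 1 to 8 higher.

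The deviations of same-numbered arrays correlated at -0.02, 0.10 and -0.18, and those of other pairs at -0.20 to 0.33. With so few arrays these values cannot show whether any arrays are paired. With the replicate block 2 members were higher at an unadjusted p under 0.05 (Asns and Vldlr), Slc3a2 was at -0.06 and Tars at 0.01.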
